A study of Mus musculus with 12 samples.

Results

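The older L1 and Lx classes are the LINE-1 repeat families of the mouse genome outside the young L1Md group. They were chosen by name and level, as the RepeatMasker classes named L1 or Lx but not L1Md_ whose mean over 12 RNA-seq libraries exceeded the floor of the table by 1 or more on its log2 scale. This left 96 of the 1217 repeat classes listed, and 4 further L1 classes fell below the level limit. The libraries came from Tet2 KO mouse embryonic stem cells (ESCs) that stably carried a construct for WT TET2 or for its catalytic mutant, and every library, in all groups, was also infected with an shRNA against Setdb1 and selected with puromycin (1 µg per ml, from 48 h after infection) for 3 days. Cells were grown without feeders in 2i medium with LIF (naïve) or in serum with LIF (primed), which gave WT naïve, mutant naïve, WT primed and mutant primed groups of 3 poly(A)-selected libraries each. Libraries with a control shRNA were not analysed here, so the response to SETDB1 depletion itself is not measured. Each rescue construct is represented by a single line name in the labels, and whether a line was 1 clone is not given in the sources used here, nor is it stated that the numbered replicates of a group were separate cultures, so p-values measure the spread between these libraries.

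LINE-1 elements are retrotransposons without long terminal repeats that copy themselves through an RNA intermediate. In the mouse the L1Md families hold the copies that can still move, whereas older families are mostly truncated and mutated and persist as fossils within introns, untranslated regions and intergenic sequence. Lx is an old family that is particular to murine rodents, L1_Mus and L1_Mur are later rodent families, L1VL and L1_Rod are further rodent groups, and the L1M series (L1MA to L1ME and other L1M classes) is shared among mammals. ESCs restrain LINE-1 elements through DNA methylation and through H3K9 methylation by enzymes such as SETDB1, and TET proteins oxidise methylated cytosine. The authors pooled reads of all copies of a class, so these counts do not separate transcripts that start in an element from longer transcripts that contain one.

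The 96 classes comprised 16 Lx, 7 L1_Mus or L1_Mur, 4 L1_Rod or L1VL, 9 L1MA, 7 L1MB, 10 L1MC, 6 L1MD, 17 L1ME and 18 other L1M classes, together with L1P5 and L1_Mm. Values are the deposited variance-stabilised values, a log2 scale on which 0 reads stand at 2.51. Since the level chose the members, their levels are given as a description. Just inside the limit were L1M3d at a mean of 3.68, L1MEg1 at 3.56 and L1MEg2 at 3.54, and just outside it were L1M3f at 3.47, L1PB4 at 3.11 and L1M3a at 2.85. The 96 classes took 74964 to 228679 reads per library, which was 6.10% to 8.10% of the repeat reads outside all classes named as rRNA. Reads were unevenly spread, with 10.7% of them assigned to L1_Mus1, 9.71% to Lx5, 8.91% to L1_Mur1, 6.21% to L1_Mus2 and 5.75% to L1_Mm. These shares are not per length and do not rank the classes by expression. Of the 96 classes, 67 had at least 100 reads in every library, 14 had a library with under 10 reads and 4 had a library with none.

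The deposited repeat values moved together within a library. The median deviation of all 939 classes tested from their means over the 12 libraries ran from -0.30 in mutant primed replicate 1 to 0.50 in mutant primed replicate 3, and the older L1 and Lx classes followed it, from -0.38 in WT naïve replicate 2 to 0.66 in mutant primed replicate 3. The largest upward shifts of all classes were in WT naïve replicate 3 (0.42) and mutant primed replicate 3. These libraries also had the least of the ribosomal class SSU-rRNA_Hsa, at 20.02% and 27.4% of repeat reads. The other libraries held 40.7% to 53.5%. The part of the ribosomal share in the shift was not tested. The median SD of a class within groups was 0.44 on the deposited scale and 0.21 once the reads recovered from the table were rescaled by medians of ratios, a scaling that sets the typical class equal between libraries. Tests below use the deposited values, and the rescaled result is given beside them where it differs. ESC markers were read in all libraries (Pou5f1 13.07 to 13.88 on the gene scale). Of the fibroblast genes examined, Col1a2 and Col3a1 had 0 reads in every library. Pdgfrb had 0 to 10 reads per library, Col1a1 1 to 10, Thy1 8 to 100 and Vim 1412 to 5585. Dnmt3l, a cofactor of de novo DNA methylation that is low in naïve cells, stood at 6.73 to 7.58 in naïve and 11.74 to 12.58 in primed libraries.

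**Figure D1:**
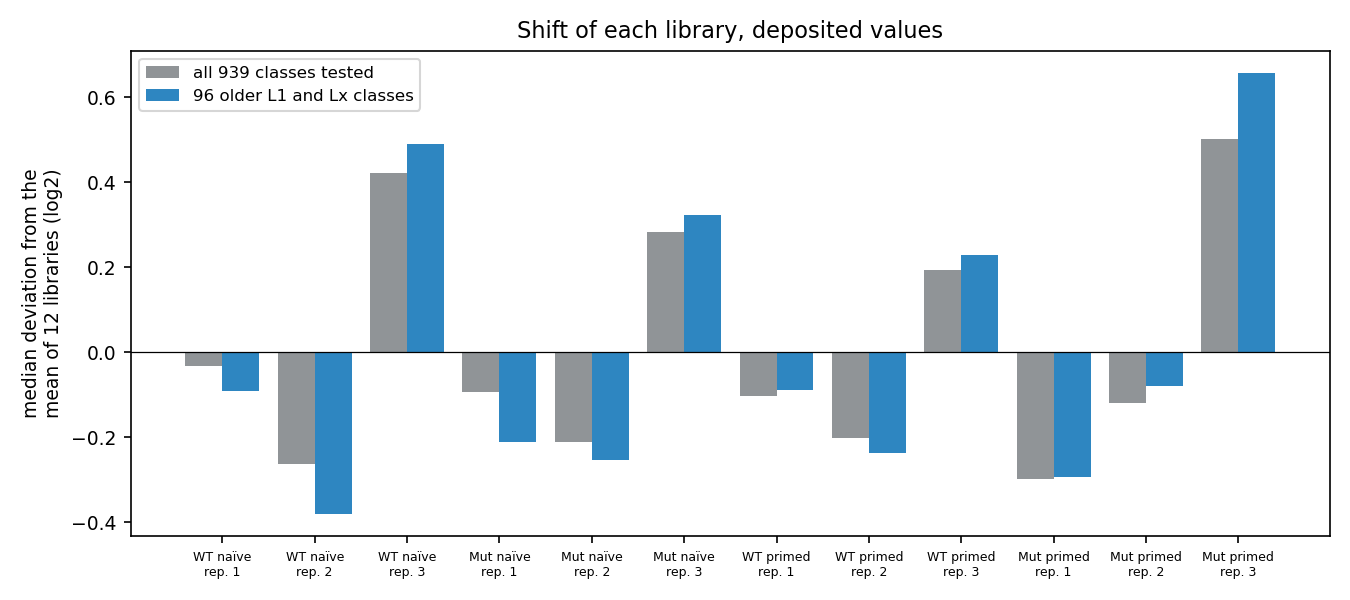
Median deviation of repeat classes from their mean over 12 libraries (log2, y axis) in each library (x axis), for all 939 classes tested (grey bars) and for the 96 older L1 and Lx classes (blue bars). Both sets of bars are above 0 in replicate 3 of every group and reach 0.50 and 0.66 in mutant primed replicate 3.

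Naïve and primed ESCs were compared first, as the mean of both rescue lines. The rodent classes L1_Mur1 and Lx5 were higher in naïve ESCs by 2.00-fold and 1.60-fold, and the mammalian-wide class L1MB7 by 1.90-fold. These were the 3 of 96 classes that reached an adjusted p under 0.05 (limma), and 0 were lower. Over all 939 classes 7.24% reached it in either direction, 5.01% higher and 2.24% lower. Of the members 1 also passed the study's fold limit, a difference of more than 1, against a background of 4.05%. The median difference of the 96 classes was -0.10, against -0.003 for all classes tested, with 36 higher and 60 lower in naïve ESCs. It was 0.05 without mutant primed replicate 3 and -0.21 without WT naïve replicate 3.

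L1_Mur1 had a lowest value of 13.14, a median of 13.90 and a highest value of 14.11 in the 6 naïve libraries. In the 6 primed libraries its lowest, median and highest values were 12.21, 12.76 and 13.28. Only the lowest naïve library, WT replicate 1, overlapped the primed range, through mutant primed replicate 3. The means were 13.79 ± 0.34 and 12.79 ± 0.38 (SD, n = 6 each). This was 1.00 on the log2 scale, with a standard error of 0.19 (adjusted p = 0.00105 by limma), and it was the class that passed the fold limit. The difference lay at the limit itself. It was 0.97 after median-of-ratios scaling (limma, adjusted p = 0.00391), and without single libraries it lay between 0.93 and 1.11 with an adjusted p of at most 0.00774. It dropped under 1 without mutant naïve replicate 2 (0.98), mutant primed replicate 2 (0.94), WT naïve replicate 2 (0.93), WT naïve replicate 3 (0.97) or WT primed replicate 1 (0.93). In reads, L1_Mur1 had 6737 to 23411 per naïve library and 3506 to 10496 per primed library.

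L1MB7, the class of the L1MB family with the most reads, stood at 11.43, 11.70 and 12.27 in naïve ESCs (lowest, median and highest of 6 libraries) and at 10.27, 10.76 and 11.72 in primed ESCs. Mutant primed replicate 3, one of the libraries with a low ribosomal share, was the primed library that reached into the naïve range. The means were 11.76 ± 0.31 and 10.84 ± 0.49 (SD, n = 6 each), a difference of 0.92 (standard error 0.23, limma, adjusted p = 0.0107). After median-of-ratios scaling its groups no longer overlapped and the difference was 0.89 (limma, adjusted p = 6.28e-04). 

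Lx5 was the exception within its family. Its naïve values were 13.21, 13.74 and 14.44 (lowest, median and highest of 6) and its primed values 12.64, 13.06 and 13.47, so that WT naïve replicate 1 lay inside the primed range. The difference was 0.68 (standard error 0.19, limma, adjusted p = 0.0291). It missed an adjusted p of 0.05 in 6 of the 12 fits that left out a library: without mutant naïve replicate 1 (adjusted p = 0.0514) or 3 (0.105), mutant primed replicate 2 (0.111), WT naïve replicate 2 (0.0510), and WT primed replicate 1 (0.114) or 2 (0.0812). After median-of-ratios scaling it was 0.65 (limma, adjusted p = 0.00489).

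L1_Mur2, the class named next to L1_Mur1, showed the same sign. It ran from 11.92 to 13.03 (median 12.59) in naïve and from 11.52 to 12.58 (median 11.90) in primed ESCs, and the groups overlapped. The difference of 0.62 did not pass on the deposited scale (limma, adjusted p = 0.0610) and did after median-of-ratios scaling (0.59, adjusted p = 0.00386). The sister classes of the same families did not share this difference: L1_Mus1, which took the most reads of all, differed by 0.01 (13.66 ± 0.31 against 13.65 ± 0.40, SD, n = 6 each), L1_Mus2 by 0.06 and L1_Mus3 by 0.01, whereas L1_Mur3 differed by -0.30 and L1_Mus4 by -0.46, with none of these passing on the deposited scale. The signs of L1_Mus1 and L1_Mus3 turned after rescaling, to -0.02 each.

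**Figure D2:**
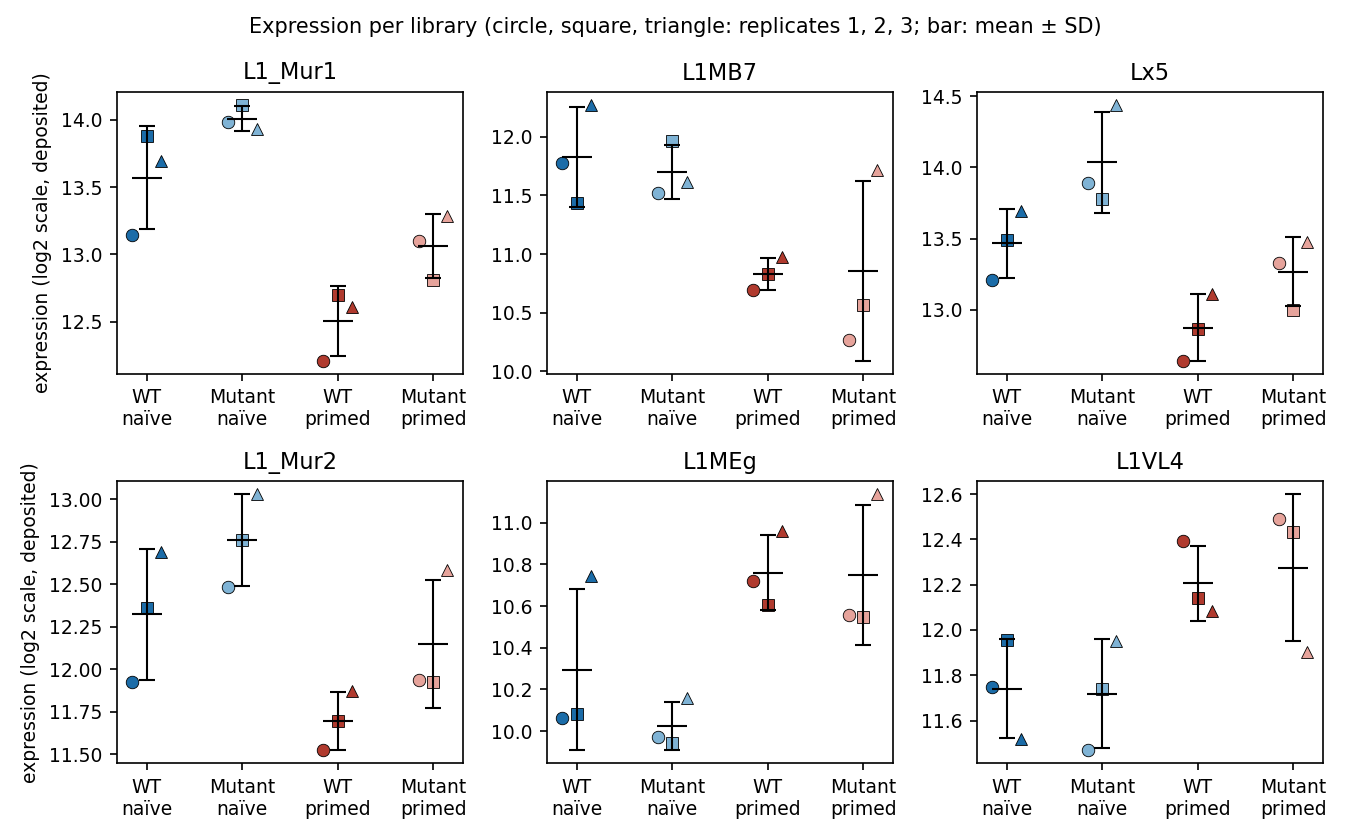
Expression of 6 classes in each library (y axis, deposited log2-scale values; x axis, the 4 groups), with replicates as circles, squares and triangles and the mean ± SD as bars. L1_Mur1, L1MB7, Lx5 and L1_Mur2 are higher in naïve than in primed ESCs by 0.62 to 1.00, and L1MEg and L1VL4 are lower by 0.60 and 0.51.

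On the lower side, no class passed on the deposited scale. The most negative differences were those of L1M3d (-0.70), L1MEa (-0.63), L1MEg (-0.60), L1M2c (-0.54), L1MCb (-0.53), L1VL4 (-0.51), L1M3c (-0.48) and L1MA4A (-0.47). Most of these rested on few reads: L1M3d had 0 to 9 reads per naïve and 3 to 17 per primed library, and L1MEa had 1 to 19 and 2 to 40. L1MEg and L1VL4 were well read. L1MEg stood at 9.94, 10.07 and 10.74 in naïve ESCs (lowest, median and highest of 6) and at 10.55, 10.66 and 11.14 in primed ESCs, with WT naïve replicate 3 as the single naïve library inside the primed range. Its means were 10.16 ± 0.30 and 10.75 ± 0.24 (SD, n = 6 each; limma, adjusted p = 0.0650). L1VL4, the best-read class of its rodent group, stood at 11.47, 11.74 and 11.95 in naïve and at 11.90, 12.27 and 12.49 in primed ESCs, and mutant primed replicate 3 was the primed library that reached the naïve range (limma, adjusted p = 0.117).

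The number of classes that passed moved with the scaling and with the libraries used. After median-of-ratios scaling 16 members reached an adjusted p under 0.05, 7 higher and 9 lower in naïve ESCs, where 19.3% of all classes did (11.4% higher and 7.88% lower), and 0 of them exceeded a difference of 1, against 3.94% of all classes. The higher ones were L1_Mur1, L1MB7, Lx5, L1_Mur2, L1ME2 (0.39), L1M4 (0.36) and L1MEf (0.26). The lower ones were L1MEg (-0.62, adjusted p = 2.47e-04), L1M3d (-0.72), L1M2c (-0.56), L1MA4A (-0.50), Lx3C (-0.47), Lx3B (-0.43), L1MEb (-0.41), L1_Mur3 (-0.33) and L1MC3 (-0.31). The rescaling moved the median of all classes by little, to -0.03, and narrowed the spread between replicates. Naïve and primed libraries did not overlap for 0 members on the deposited scale, against 4.26% of all classes. On the rescaled values they did not overlap for 4 members, 1 higher (L1MB7) and 3 lower (Lx3B, L1M2c and L1MEg), against 9.48% of all classes (5.96% higher and 3.51% lower). Without both libraries of low ribosomal share, 7 members passed on the deposited scale, against 13.3% of all classes (8.95% higher and 4.37% lower): L1_Mur1, L1MB7, Lx5 and L1_Mur2 were higher, and L1VL4 (-0.55), L1MEg (-0.61) and L1M3d (-0.87) were lower. The count was 7 without mutant primed replicate 3 alone (11.7% of all classes) and 5 without WT naïve replicate 3 alone (8.73%).

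The families differed in the sign of their members. Of the 16 Lx classes 15 were lower in naïve ESCs, with a median difference of -0.19 and a range of -0.44 (Lx3C) to -0.06 (Lx7), and Lx5 was the one above 0. The 4 L1_Rod and L1VL classes were all below 0, with a median of -0.27. The 7 L1_Mus and L1_Mur classes had a median of 0.01 and the widest range of the rodent families, from -0.46 to 1.00. The 67 L1M classes had a median of -0.03, with 29 above and 38 below 0. Beside the 3 classes named above, none of these signs rested on a class that passed on the deposited scale, and all 15 Lx classes and 4 L1_Rod and L1VL classes kept their sign after rescaling. The Lx signs depended on single libraries: 10 of 16 were below 0 without mutant primed replicate 3, 13 without WT naïve replicate 2 and 14 without WT naïve replicate 1. Without mutant primed replicate 3, 2 of the 4 L1_Rod and L1VL classes were below 0. The 6 young L1Md classes were all lower in naïve ESCs, with a median of -0.64.

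**Figure D3:**
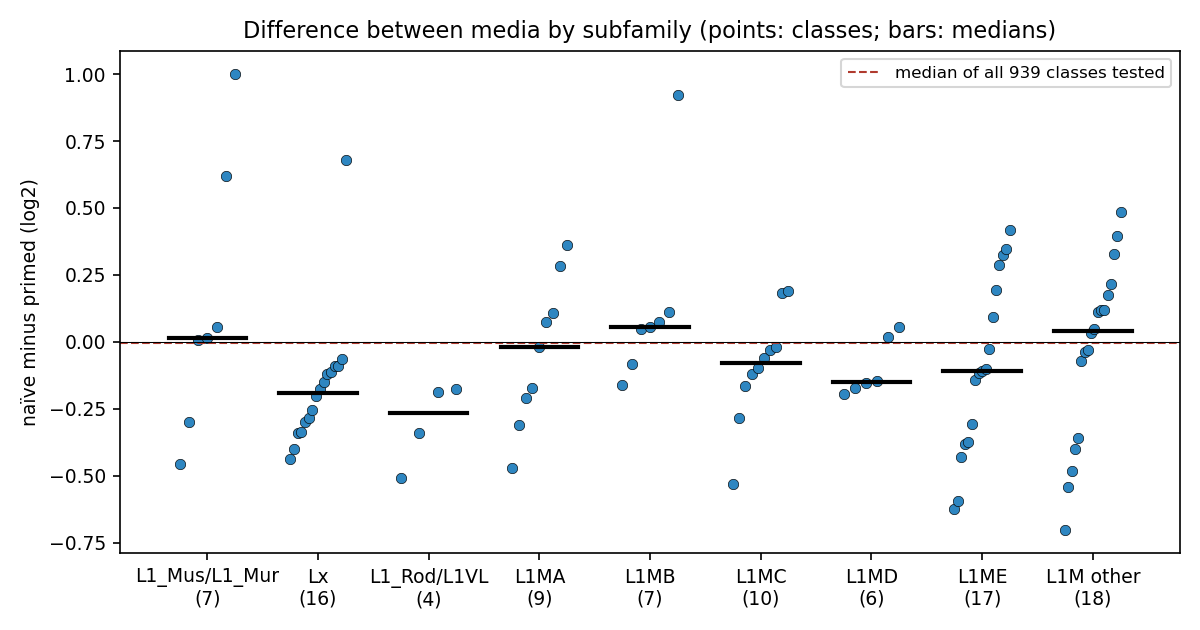
Naïve minus primed difference (log2, y axis) of each class (points) by subfamily (x axis, number of classes in brackets), with subfamily medians as black bars and the median of all 939 classes tested as a dashed line. All Lx points but Lx5 lie below 0, and L1_Mur1 and L1MB7 are the highest points at 1.00 and 0.92.

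Summed over all 96 classes, reads overlapped between media. Per 1000000 gene reads the sums were 8137 to 10556 in WT naïve (median 9026), 9088 to 11327 in mutant naïve (median 10259), 8854 to 9633 in WT primed (median 9293) and 9690 to 11167 in mutant primed ESCs (median 10105), and all 4 ranges overlapped with at least one group of the other medium. Between the lines the sums of the 96 classes overlapped in naïve ESCs. In primed ESCs all WT libraries lay below all mutant ones, with ranges that nearly met at 9633 and 9690. The sums were not tested between lines. The L1Md classes summed to 5152 to 9050 in naïve and to a higher 11336 to 14921 in primed ESCs, ranges that did not overlap. Within the older classes, the 4 L1_Rod and L1VL classes summed to 314 to 482 in naïve and 484 to 683 in primed ESCs. These ranges did not overlap but nearly met, at 481.7 in mutant naïve replicate 3 and 484.0 in mutant primed replicate 3. L1VL4 took 49667 of the 72718 reads of these 4 classes over all libraries. The Lx sums overlapped (2095 to 3940 against 2472 to 3275).

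The comparison between media was then made within each rescue line, from separate libraries. With WT TET2, L1_Mur1 stood at 13.14, 13.88 and 13.69 in naïve and at 12.21, 12.70 and 12.61 in primed replicates 1, 2 and 3. Every naïve library was above every primed one. Its difference was 1.06 (standard error 0.27, limma, adjusted p = 0.0325), the 1 member that passed, against 2.34% of all classes. The call was lost in 7 of the 12 fits without a library: without mutant naïve replicate 1 (adjusted p = 0.0531) or 2 (0.0516), WT naïve replicate 2 (0.138) or 3 (0.0654), and WT primed replicate 1 (0.276), 2 (0.0821) or 3 (0.0726). Over repeat classes, libraries with the same number deviated together weakly in this line (correlations of 0.13, 0.16 and 0.30). Over genes of the same libraries they did not in every pair (0.22, 0.14 and -0.02). With the number in the fit as a replicate block 6 members passed, against 10% of all classes (7.45% higher). These were L1_Mur1 (limma, adjusted p = 6.33e-04), L1MB7, L1ME2, L1_Mur2, Lx5 and L1M4, all higher in naïve ESCs.

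With mutant TET2, L1_Mur1 stood at 13.98, 14.11 and 13.93 in naïve and at 13.10, 12.81 and 13.28 in primed ESCs. These groups did not overlap either, and the difference was 0.94 (standard error 0.27, limma, adjusted p = 0.0563). With limma 0 members passed in this line, with 7 at an unadjusted p under 0.05, against 3.41% and 9.58% of all classes. By limma-voom 1 member passed, also against 3.41%. L1MB7 differed by 0.85, Lx5 by 0.77 and L1_Mur2 by 0.61, next to 1.00, 0.59 and 0.63 with WT TET2. After median-of-ratios scaling 5 members passed with WT TET2 and 6 with mutant TET2, against 9.37% and 8.63% of all classes, and L1MB7 and L1MEg were in both lists.

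Across the 96 classes the differences of both lines had a Pearson r of 0.71, a description over classes that are not independent and that share the libraries of each line. In both lines 19 classes were higher and 45 lower in naïve ESCs, and 32 had opposite signs. On the deposited scale naïve libraries were all above primed ones for 7 members with WT TET2 (10.6% of all classes were) and for 3 with mutant TET2 (6.92%). They were all below for 2 (3.73%) and 3 (4.47%). After median-of-ratios scaling they were all above for 12 with WT TET2 (15.7%) and for 7 with mutant TET2 (12.7%), and all below for 10 (11.4%) and 14 (11.1%). L1_Mur1 and Lx5 were without overlap on the upper side in both lines on either scale, and L1M3d was so on the lower side on the deposited scale.

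**Figure D4:**
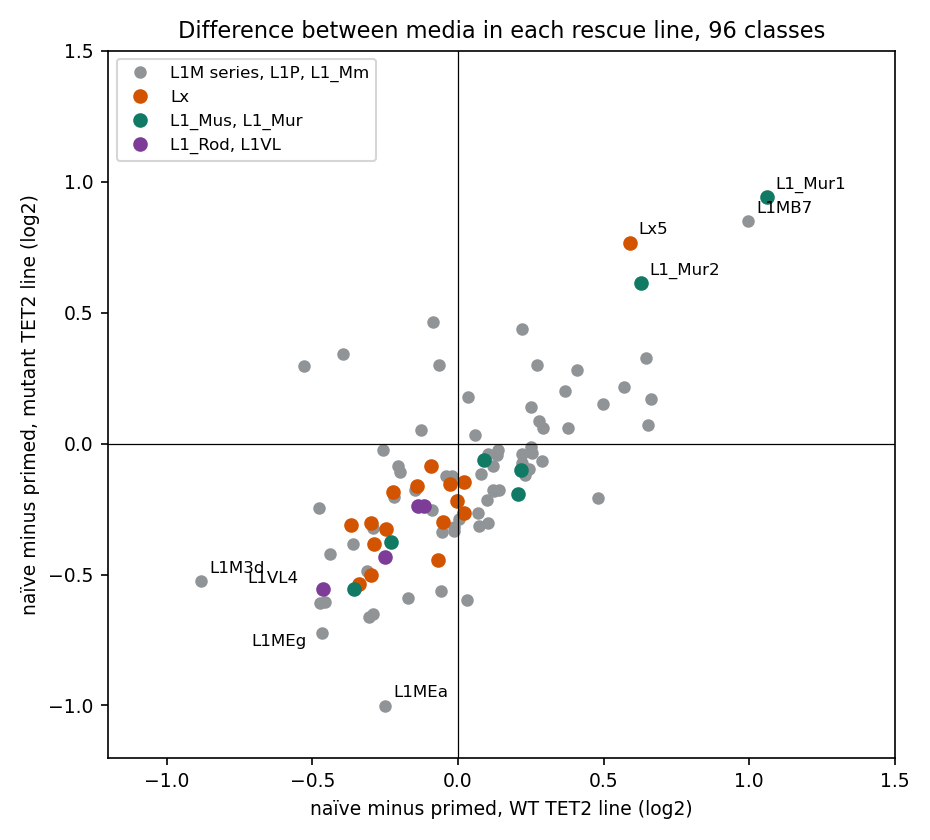
Naïve minus primed difference (log2) of the 96 classes with WT TET2 (x axis) against mutant TET2 (y axis), coloured by family. L1_Mur1, L1MB7, Lx5 and L1_Mur2 lie apart at the upper right in both lines, and the Pearson r across classes is 0.71.

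The rescue lines were compared within each medium, the contrast for which they were made. No older L1 or Lx class differed by the test. In naïve ESCs 0 of 96 members passed with limma, with 1 (Lx5) at an unadjusted p under 0.05, and 0 passed by limma-voom. Of all classes 0% passed with either tool, and 1.81% had an unadjusted p under 0.05. The paper reported IAPEz elements as the only ERVs that differed significantly between these lines. In naïve ESCs no class of any family passed here, so the lack of calls is not particular to the members and does not show equal expression. The median WT minus mutant difference was 0.06, the same as for all classes (0.06), and the members ran from -0.63 (L1M3de) to 0.42 (L1MA8). The next on the lower side were Lx5 (-0.57), L1MEg2 (-0.50) and L1M3d (-0.48), and on the upper side L1P5 (0.37), L1M3c (0.34) and L1MEa (0.34). Of these, Lx5 and L1MA8 (264 to 877 reads per library) were well read, and the others had a library under 10 reads. In the fit with the replicate block 0 members passed too, against 0.426% of all classes. The median difference of the members turned to -0.20 without WT naïve replicate 3, and also dropped below 0 without mutant naïve replicate 1 or 2 (-0.04 and -0.03).

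In naïve ESCs Lx5 was lower in every WT library than in any mutant one, at 13.21, 13.49 and 13.70 in replicates 1 to 3, against 13.89, 13.78 and 14.44 with mutant TET2. The difference was -0.57 (standard error 0.27, limma, adjusted p = 0.999, and 0.141 with the replicate block). L1_Mur1 also lay lower in every WT library, at 13.14, 13.88 and 13.69 against 13.98, 14.11 and 13.93, a difference of -0.44 (limma, adjusted p = 0.999). Lines did not overlap for 3 members on the lower side (Lx5, L1_Mur1 and L1MCc) and for 1 on the upper side (L1_Mus2), against 2.02% and 3.19% of all classes. After median-of-ratios scaling this held for 4 members on the lower side (5.64% of all classes), Lx5 and L1MCc among them, and for 7 on the upper side (6.71%), without L1_Mus2.

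In primed ESCs 0 members passed with limma or limma-voom, with 1 (L1_Mur1) at an unadjusted p under 0.05 by limma. Of all classes 0.319% passed with each tool, and 2.13% had an unadjusted p under 0.05. The median difference was -0.11 against -0.06 for all classes, and it turned to 0.18 without mutant primed replicate 3. L1_Mur1 stood at 12.21, 12.70 and 12.61 with WT and at 13.10, 12.81 and 13.28 with mutant TET2, without overlap, a difference of -0.56 (standard error 0.27, limma, adjusted p = 0.996). L1_Mur2 stood at 11.52, 11.69 and 11.87 against 11.93, 11.92 and 12.58, also without overlap on both scales (-0.45, limma, adjusted p = 0.996). They were the 2 members without overlap on the lower side (1.49% of all classes), and 0 members were so on the upper side (1.92%). After median-of-ratios scaling 8 members were without overlap on the lower side (4.58%) and 2 on the upper side (8.2%). The 4 lowest differences were completed by L1MEe (-0.46) and L1MEa (-0.41), and the 4 highest were those of L1MEd (0.54), L1MEg2 (0.24), L1M1 (0.18) and L1M2b (0.17).

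Some of the classes that were higher in naïve ESCs had lower values with WT than with mutant TET2 in both media, Lx5 by -0.57 in naïve and -0.39 in primed ESCs, L1_Mur1 by -0.44 and -0.56, and L1_Mur2 by -0.44 and -0.45, none of which passed the test. L1MB7 did not share this pattern, at 0.13 and -0.02. After median-of-ratios scaling the values of Lx5, L1_Mur1 and L1_Mur2 were -0.61 and -0.32, -0.48 and -0.49, and -0.48 and -0.38, and L1_Mur1 then overlapped between the lines in both media. Over all 96 classes the naïve and primed contrasts of the lines had little in common, with 6 classes higher and 25 lower in both, 65 of opposite sign and a Pearson r of 0.03 across classes (15, 28, 53 and 0.04 after median-of-ratios scaling). The rescue-line effect was not shown to differ between media. For that interaction limma called 0 members, with 0 at an unadjusted p under 0.05, limma-voom called 0, and 0% of all classes passed with either tool (0.426% at an unadjusted p under 0.05). The interaction of L1_Mur1 was 0.12 (standard error 0.38) and that of Lx5 was -0.18 (standard error 0.38).

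**Figure D5:**
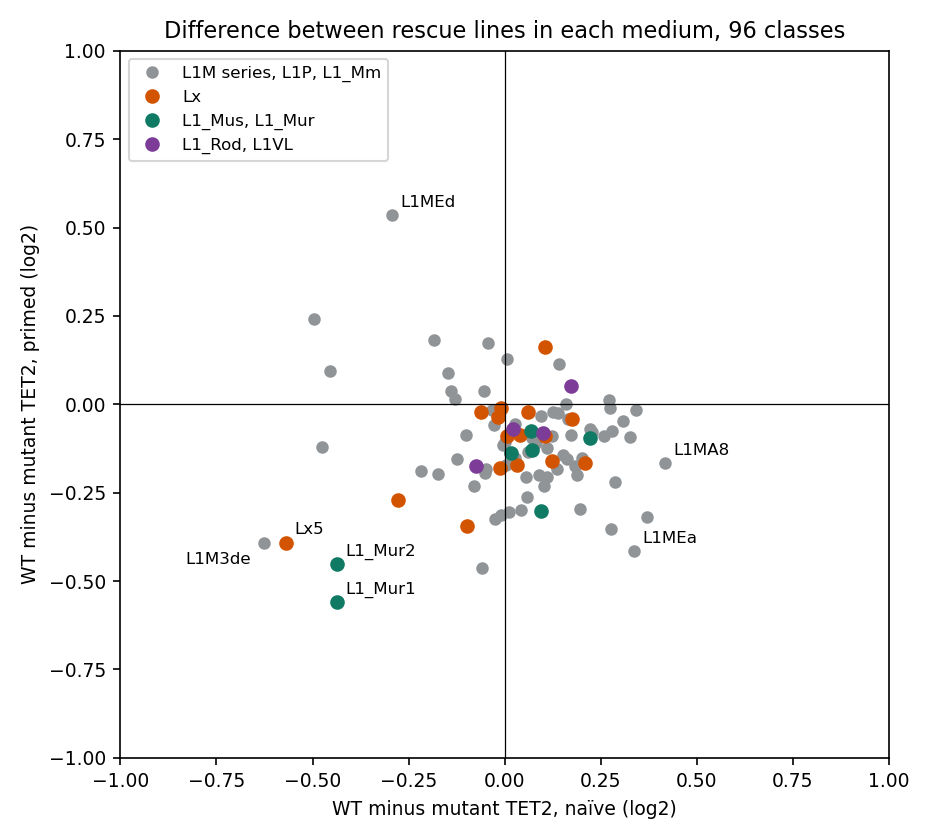
WT minus mutant TET2 difference (log2) of the 96 classes in naïve (x axis) against primed ESCs (y axis), coloured by family. Lx5, L1_Mur1 and L1_Mur2 lie at the lower left, with differences of -0.39 to -0.57, next to the less-read L1M3de, and 65 of the 96 points have opposite signs in the media (Pearson r 0.03 across classes).

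L1M3d, Lx3_Mus and Lx3C, which the study lists among the repeats that respond to SETDB1 depletion, were read in all groups but differently well. L1M3d had at most 17 reads in a library, Lx3_Mus 291 to 1420 and Lx3C 222 to 1065. In this order their naïve minus primed differences were -0.70, -0.30 and -0.44. Lx3C passed after median-of-ratios scaling (-0.47, adjusted p = 0.0206) and Lx3_Mus did not (-0.33, adjusted p = 0.0550). Their WT minus mutant differences were -0.48, -0.01 and 0.11 in naïve and -0.12, -0.01 and -0.09 in primed ESCs, all smaller than 2 standard errors. The classes with the most reads in the remaining families did not pass between media, with differences of 0.35 for L1ME4a, 0.28 for L1MA4, 0.18 for L1M5, 0.14 for L1P5, 0.02 for L1MD2, -0.03 for L1MC4 and -0.14 for L1_Mm.

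A list of 33 genes that act in H3K9 methylation, DNA methylation or demethylation, restriction of LINE-1 elements or binding of their RNA was examined in the gene table of the same libraries. Between media 16 of them were called at an adjusted p under 0.05, 3 higher and 13 lower in naïve ESCs, where 51.8% of all genes tested were called (26.4% higher and 25.4% lower). Among the H3K9 methylation and HUSH genes 6 of 13 were lower and 0 higher. Trim28, the corepressor that brings SETDB1 to its targets, differed by -1.01 (standard error 0.13, limma, adjusted p = 9.30e-06), and Setdb1 itself by -0.44 (limma, adjusted p = 0.0472, up to 0.117 over the alternatives). Atrx, Ehmt1, Cbx5 and Suv39h1 were the others. Of these, Suv39h1 (-0.31, limma, adjusted p = 0.0215) reached an adjusted p of 0.0556 with the replicate block and up to 0.0642 over the alternatives. Setdb1 was the target of the shRNA in every library, so for this gene the extent of knockdown and the medium cannot be told apart.

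Of 6 DNA methylation genes the de novo methyltransferases Dnmt3a (-1.10) and Dnmt3b (-2.33) and their cofactor Dnmt3l (-5.18, limma, adjusted p = 3.14e-12) were lower, whereas Dnmt1, which maintains methylation, and its partner Uhrf1 did not pass (0.16 each). Of the 4 DNA demethylation genes Tet2, whose reads include the rescue construct, was lower in naïve ESCs by a difference of -1.71 (limma, adjusted p = 1.94e-05), and Tet1, Tet3 and Tdg did not pass. L1td1, a gene derived from the L1 ORF that encodes an RNA-binding protein, stood at 10.09 ± 0.74 and 9.50 ± 0.68 in WT and mutant naïve ESCs and at 12.82 ± 0.15 and 12.33 ± 0.22 in primed ESCs (SD, n = 3 each), a difference between media of -2.79 (limma, adjusted p = 5.11e-08). Of the restriction factors, the cytidine deaminase Apobec3 (1.40) and the RNA helicase Mov10 (0.81) were higher in naïve ESCs and Tex19.1 (-0.90) and Samhd1 (-0.58) were lower. Pabpc1, a poly(A)-binding protein, was higher by 0.28 (limma, adjusted p = 0.0425, up to 0.105 over the alternatives).

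Between the rescue lines Tet2 was the 1 gene of the 33 that was called in each medium, where 0.0987% of all genes were called in naïve and 0.254% in primed ESCs. It stood at 13.27 ± 0.65 with WT and 11.12 ± 0.72 with mutant TET2 in naïve ESCs and at 14.83 ± 0.26 and 12.99 ± 0.43 in primed ESCs (SD, n = 3 each), differences of 2.16 (limma, adjusted p = 0.0154) and 1.84 (adjusted p = 0.0297). Reads of the construct and of the locus cannot be told apart in this gene. The lines thus differed in Tet2 RNA as well as in the mutation, whereas the study reported similar levels of WT and mutant protein by Western blot. The naïve call was lost without mutant naïve replicate 1 or 2 or WT naïve replicate 3, and the primed call without mutant primed replicate 1 or 2 or any 1 of the WT primed libraries, which left 0 called genes in each case. Setdb1 did not pass between the lines, at 0.13 in naïve and 0.16 in primed ESCs (limma, adjusted p = 0.857 and 0.788). The interaction of line and medium called 0 of the 33 genes and 0% of all genes.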

How the data were processed

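RNA-seq of 12 libraries was used, 3 per group, as assigned by the labels. Per the labels and methods, the authors trimmed reads with Trim Galore 0.3.3, aligned them to mm9 with TopHat2 2.0.9, kept one random position for reads that align equally well to several, counted reads per gene and RepeatMasker class without strand, and deposited DESeq2 variance-stabilised log2 values. Inverting the transformation gave whole reads for 100% of values (within 0.01), 8066662 to 21335933 per library for genes and 3156928 to 13718028 for repeats. The deposited gene size factors are medians of ratios, and those of the repeats are not. Each table was tested alone.

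All 12 libraries entered one fit of 4 groups with limma 3.58.1 (R 4.3.3), an intensity trend and Benjamini-Hochberg adjustment over the 939 classes at least 1 above the lowest value, which all 96 members passed, or over genes filtered alike. A call of a class required a difference over 1, the fold limit of the study, beside an adjusted p under 0.05, and counts by the adjusted p alone are also given. A call of a gene required the adjusted p only. The fit was run on simulated counts that had no library shift beyond the size factors and no replicate structure. That run does not cover how the results depend on scaling or pairing. The members, families, gene list and tests were chosen with earlier results of these data known. Classes named are the 8 highest and 8 lowest between media, the 4 highest and 4 lowest between lines in each medium, called classes, the best-read class of each family, those near the level limit and the classes the study lists. Other classes were named after their values were seen. The alternatives were other filters, no trend, centring, quantile normalization, other scalings, limma-voom on recovered reads, 6 libraries only, a replicate block and each library left out. The block with median-of-ratios scaling, and leaving out both libraries of low ribosomal share, were added after the values were seen. Replicate numbers come from the labels. Over repeat classes same-numbered libraries correlated in every pair by over 0.1 between the lines in naïve ESCs (0.42, 0.29 and 0.49) and between the media with WT TET2 (0.13, 0.16 and 0.30). Over genes the values were 0.59, 0.30 and 0.39 for the former and 0.22, 0.14 and -0.02 for the latter. Tables and figures were made with Python 3.11.15, using pandas 2.3.3 with numpy 2.4.6, and matplotlib 3.10.9. Reads are not independent molecules, and no counting interval is given.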

Additional observations from a re-analysis of the deposited data

How the results depend on the processing

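Between media, the number of older L1 and Lx classes at an adjusted p under 0.05 was 3 as reported and 16 after centring on the median class, 16 after median-of-ratios scaling, 15 after quantile normalization, 12 with the gene size factors, 14 with the replicate block, 23 with median-of-ratios scaling and the replicate block, 7 without both libraries of low ribosomal share and 2 to 7 without single libraries. Of these, 1 also differed by more than 1 as reported, against 0 under each of these scalings, 2 without both low-ribosomal libraries and 0 to 2 without single libraries. With WT TET2 the count was 1 as reported, 6 after centring, 5 after median-of-ratios scaling, 4 after quantile normalization, 3 with gene size factors, 6 with the replicate block (also with median-of-ratios scaling), 2 in a fit of 6 libraries, 2 without the low-ribosomal libraries and 0 to 2 without single libraries. Those over a difference of 1 were 1 as reported, 0 under the scalings and 0 to 1 without single libraries. With mutant TET2 the count was 0 as reported, 7 after centring, 6 after median-of-ratios scaling, 9 with its replicate block, 9 after quantile normalization, 5 with gene size factors, 8 with the replicate block alone, 1 by limma-voom, 1 with a stricter filter, 5 without the low-ribosomal libraries (2 over a difference of 1) and 0 to 2 without single libraries. The replicate block left 1 class over a difference of 1 in that line. Same-numbered libraries did not all correlate by over 0.1 there (0.20, 0.05 and 0.20) nor between lines in primed ESCs (0.05, -0.02 and 0.33). With mutant TET2 their mean was still 0.15, against -0.07 for libraries of other numbers, next to 0.20 and -0.10 with WT TET2. The block is given for these comparisons as a setting, and it changed no call between the lines. The median interaction of the members was 0.18 as reported and -0.35 without the low-ribosomal libraries. Gene size factors moved the median of all classes between media to -0.12. Of all classes, 7.24% passed between media as reported, 19.3% after median-of-ratios scaling and 13.3% without both low-ribosomal libraries. With WT TET2 the shares were 2.34% as reported, 9.37% after median-of-ratios scaling and 10% with the replicate block. With mutant TET2 they were 3.41% as reported and by limma-voom, and 8.63% after median-of-ratios scaling. Where no share of all classes is given, the count describes the setting and is not a result about the members.

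Small differences changed sign. Between media L1_Mus1 was -0.042 after centring, -0.13 with gene size factors, -0.022 after median-of-ratios scaling (also with the block), -0.12 after quantile normalization and -0.13 to 0.16 without single libraries. L1MD2 was -0.031, -0.11, -0.011, -0.032 and -0.14 to 0.19 in the same order. L1MC4 was 0.0054 without the low-ribosomal libraries and -0.20 to 0.18 without single ones, and L1P5 was -0.031 to 0.32. Between lines in naïve ESCs, L1M3c was -0.046 without the low-ribosomal libraries (-0.046 to 0.65 without single ones), Lx3C -0.22 (-0.22 to 0.45) and Lx3_Mus -0.29 to 0.30. In primed ESCs, Lx3_Mus was 0.23 without the low-ribosomal libraries, 0.013 by limma-voom, 0.058 after median-of-ratios scaling (also with the block), 0.047 after quantile normalization and -0.24 to 0.23 without single libraries, and Lx3C was 0.17 and -0.31 to 0.17. L1M1 was -0.044 to 0.56, L1MEg2 -0.22 to 0.50, L1MEa -0.82 to 0.023 and L1M3d -0.29 to 0.020. The L1 control genes called between lines were 0 to 1 in each medium without single libraries. The causes of these changes were not tested. Of 474 recomputed counts and medians 403 stayed within 1.5 times the reported count or within the spread between replicates, and 71 did not. That spread was 0.447, so a small median could change sign and still be counted as staying. Counts of 0 that remained 0 were also included. The 403 therefore does not measure how stable the results are. Classes with under 10 reads in a library are limited by depth.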
